A study of Mus musculus with 9 samples.

Results

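Translation initiation factor genes were followed in brown adipose tissue (BAT) of mice kept at room temperature or exposed to acute cold, with and without the eIF2 kinase GCN2. Members were the genes whose symbol begins with Eif and a digit from 1 to 6, leaving out the Eif2ak genes, which encode kinases of eIF2. This rule found 52 genes among the 16937 listed in at least 1 of the deposited tables, and all 52 were listed in each of the 3 tables. Of the 52, 50 were annotated as protein coding, and Eif3s6-ps2 and Eif4a-ps4 as processed pseudogenes.

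Adult wild-type (WT) and whole-body GCN2 knockout (GCN2 KO, Gcn2-/-) mice of 12 to 23 wk, on a C57Bl/6J background after 10 generations of backcrossing, were housed singly for 5 days before the experiment. WT mice stayed at 23°C (WT RT, n = 3), or were moved to 4°C for 8 h (WT Cold, n = 3), and GCN2 KO mice were moved to 4°C for 8 h (GCN2 KO Cold, n = 3). No GCN2 KO group at 23°C was analysed here, so the effect of cold could not be compared between genotypes by a test of the difference. BAT was taken from male and female mice, each library came from 1 mouse, and the labels do not give the sex of a sample.

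Translation of most mRNAs starts when eIF2, loaded with GTP and the initiator tRNA, joins the small ribosomal subunit together with eIF1, eIF1A, eIF3 and eIF5. The cap-binding eIF4E, the scaffold eIF4G and the helicase eIF4A bring this complex to the 5' end of the mRNA, and eIF1 and eIF1A keep it scanning until a start codon is found. After each round eIF2 is left with GDP, and eIF2B, which has 5 different subunits, exchanges it for GTP. GCN2, encoded by Eif2ak4, phosphorylates the alpha subunit of eIF2 during the integrated stress response, and phosphorylated eIF2 blocks eIF2B. The 4E-binding proteins hold eIF4E away from eIF4G until mTORC1 phosphorylates them. BAT burns lipid to make heat, and cold is the usual stimulus for this.

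The site that GCN2 phosphorylates lies in Eif2s1, the gene of the alpha subunit of eIF2, and its coding sequence is shown because it is the point at which the deleted kinase meets this gene family. It is at chr12:78866659-78866703 on the plus strand of GRCm38, in exon 2 of 8, and capitals mark the codon of serine 51, which is codon 52 when the start codon is counted.
Eif2s1: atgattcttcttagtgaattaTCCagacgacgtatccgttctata

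The gamma subunit of eIF2, which holds GTP and the initiator tRNA, is encoded by Eif2s3x on the X chromosome and Eif2s3y on the Y chromosome. A stretch of coding bases 136 to 225 of both is shown because it tells how far reads of the pair could be separated. It lies at chrX:94209572-94209661 on the minus strand and at chrY:1011842-1011931 on the plus strand of GRCm38, and capitals mark the 13 of 90 bases that differ. Over 1416 aligned coding bases the pair was 86.3% identical, and the genes shared no stretch of 50 bases.
Eif2s3x: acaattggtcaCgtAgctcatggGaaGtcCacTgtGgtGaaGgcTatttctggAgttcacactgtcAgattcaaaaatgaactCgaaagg
Eif2s3y: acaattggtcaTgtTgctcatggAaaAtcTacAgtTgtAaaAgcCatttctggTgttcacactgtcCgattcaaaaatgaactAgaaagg

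Libraries held 27058799 to 30768064 reads on listed genes and are called A, B and C within each group in the order of their library codes. Codes of the WT RT libraries begin with other letters than those of the cold libraries, so cold and the set of libraries cannot be told apart in the comparisons with WT RT. WT Cold C and GCN2 KO Cold C held few reads of the Y-linked genes, with 213 and 218 reads of Eif2s3y against 2003 to 2803 in the other 7 libraries, and 3449 to 3761 reads of Xist against 323 to 1230. Every comparison below is therefore also given without these libraries. Of the 3 samples placed in GCN2 KO Cold by their genotype label, 1 has a title that names both GCN2 KO and WT, so its labels disagree, and every GCN2 KO Cold value rests on the genotype label. Eif2ak4 did not fall in libraries that carry the GCN2 KO Cold label: normalized counts were 369, 397 and 371 there against 182, 239 and 246 in WT Cold and 296, 336 and 371 in WT RT. The authors' methods do not say which part of Eif2ak4 was deleted, and reads were not counted per exon. These counts therefore do not check the genotype, and why they did not fall was not tested. Summed CPM (reads scaled to the total of the library) of 10 brown adipocyte markers was 18231 to 20198 in WT RT, 24600 to 26541 in WT Cold, and 28977 to 29543 for GCN2 KO Cold, and none of them was at 0 in every library. In WT Cold against WT RT, 4 of these 10 were higher and 1 lower at a limma adjusted p under 0.05 (13.6% and 14.1% of all genes). Summed CPM of 12 skeletal muscle markers was 2513 to 3045 in WT RT, 2386 to 3962 in WT Cold and 292 to 1347 in GCN2 KO Cold. The ranges of WT RT and WT Cold thus overlapped. That of 8 macrophage and monocyte markers was 355 to 573, 175 to 265 and 131 to 199 in the same order. For 5 red blood cell markers it was 260 to 345, 572 to 2279 and 1084 to 2081. The sums of markers of endothelial cells (590 to 671, 727 to 845 and 563 to 675 CPM), Schwann cells (86.8 to 111, 103 to 143 and 95.5 to 119 CPM), lymphocytes (8.83 to 12.3, 6.08 to 8.36 and 7.13 to 9.44 CPM) and white adipocytes (203 to 209, 158 to 192 and 85.4 to 152 CPM) are given in the same order. No marker on these lists was at 0 in every library. The part of these cell types in the results below was not tested.

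Normalized counts per library are given below as reads divided by a size factor set over all 9 libraries. Tests were made with limma within each deposited table, on log2(normalized count + 1), with a call wherever the p adjusted over the genes of that table fell under 0.05. Fold changes are differences on that log2 scale.

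Initiation factor transcripts covered a wide range of levels. Per kilobase of exon, Eif1, which guards start codon choice, stood highest at 271 CPM per kb averaged over the 9 libraries, followed by Eif5a, whose product carries the amino acid hypusine and also acts in elongation, at 170 CPM per kb and Eif3h, a subunit of eIF3, at 80.1 CPM per kb. Eif5a2, the second gene of eIF5A, and Eif3s6-ps2 were lowest at 0.545 and 0.563 CPM per kb. In WT RT the level of Eif1 was 173 ± 8.40 CPM per kb (SD, n = 3) and that of Eif5a 161 ± 3.95 CPM per kb, and these neighbours overlapped, from 164 to 179 and from 157 to 165 CPM per kb. In WT Cold they were apart, at 320 ± 18.6 and 171 ± 10.2 CPM per kb (SD, n = 3), as in GCN2 KO Cold, at 320 ± 33.1 and 177 ± 5.89 CPM per kb. Libraries of 1 group differed by a median SD of 0.0972 on the log2 scale, and 3 members exceeded 0.3: Eif2s3y at 1.56, Eif4ebp3 and Eif3s6-ps2.

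**Figure D1:**
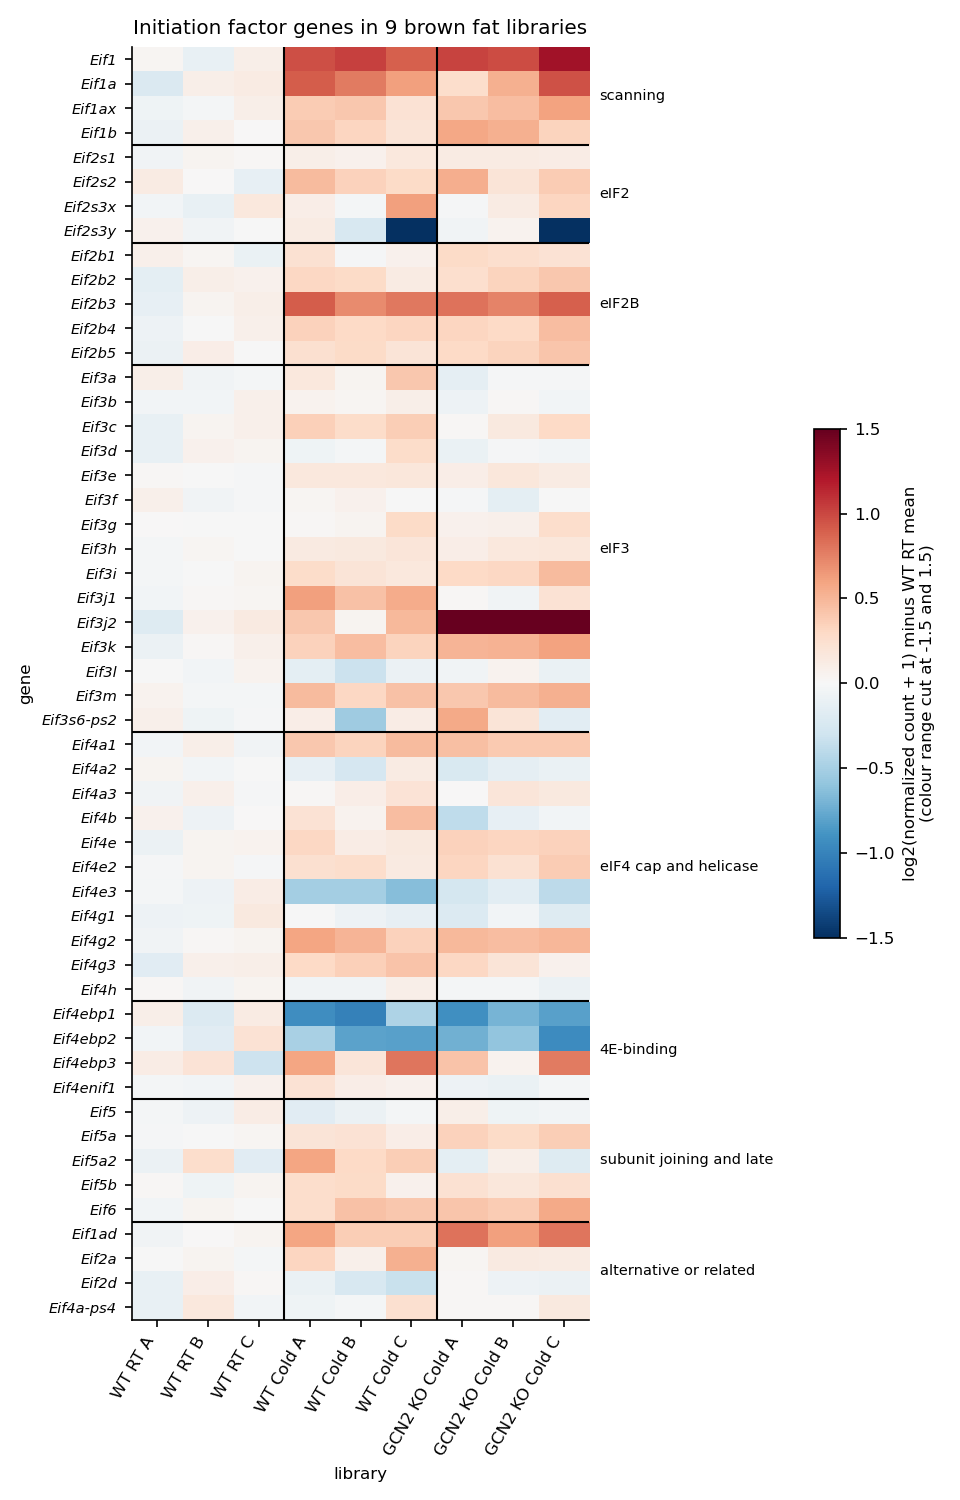
Each row is one of the 52 genes and each column a library, and colour gives log2(normalized count + 1) minus the WT RT mean, with the colour range cut at -1.5 and 1.5. The rows of Eif1 and Eif2b3 are raised in all 6 cold libraries, those of Eif4ebp1 and Eif4ebp2 are lowered in the same libraries, Eif3j2 is raised in the GCN2 KO Cold libraries, and Eif2s3y is lowered in WT Cold C and GCN2 KO Cold C.

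WT Cold was compared with WT RT to ask what 8 h of cold did to initiation factor transcripts. The scanning factors rose together, led by Eif1 at 1.96-fold (log2 fold change 0.97), along with the eIF2B gamma subunit gene Eif2b3, the DAP5 gene Eif4g2 and the helicase gene Eif4a1, while the 4E-binding protein genes Eif4ebp1 and Eif4ebp2 fell to 0.575 and 0.617 of their WT RT level. In all, 17 of 52 members (32.7%) were called higher, against 13.6% of all 16679 genes, and 3 (5.77%) were called lower, against 14.1% of all genes. None passed the threshold of an absolute log2 fold change over 1 in addition, which 8.14% of all genes did. The median member changed by 0.21 and the median of all genes by 0.0029, and 41 of the 52 members were on the positive side. All 3 cold libraries were above all 3 WT RT libraries for 30 members (57.7%), against 22.8% of all genes, and below them for 4 (7.69%), against 22.8% of all genes. Scaled to library totals, which moved the median of all genes to -0.08, 12 members were called higher (9.41% of all genes on that scale) and 4 lower (17.4% of all genes). Limma without trend called 11 higher (9.44% of all genes) and 3 lower (11.7% of all genes). Without WT Cold C, 20 were called higher (16.2% of all genes) and 3 lower (17.8% of all genes). The number called higher was 11 without WT RT A (9.28% of all genes) and 11 without WT Cold A (8.71% of all genes), with 3 called lower in each (9.6% of all genes in each).

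Scanning genes were called higher in 4 of 4 cases, the median being 0.55. Normalized counts of Eif1 were 10054, 9117 and 10536 in WT RT and 19393, 20051 and 18458 in WT Cold. The groups were far apart, and the rise of 0.97 (SE 0.0802, limma adjusted p = 0.000339) was the largest of any member. Eif1a, which encodes an eIF1A protein, stood at 1497, 1849 and 1891 in WT RT and at 3260, 2982 and 2650 in WT Cold, without overlap (0.77, SE 0.116, limma adjusted p = 0.00311). Eif1ax, the X-linked gene of eIF1A, rose by 0.34 (limma adjusted p = 0.02) and Eif1b, a close relative of Eif1, by 0.31 (limma adjusted p = 0.0401). Both of these last calls were lost when single libraries were left out, with limma adjusted p of 0.0648 to 0.0763 without WT RT A, WT RT B, WT Cold A or WT Cold B for Eif1ax, and of 0.0636 to 0.133 for Eif1b when any library other than WT Cold C was left out. Neither Eif1ax nor Eif1b was called on library totals or by limma without trend, nor was Eif1b with all 3 groups in 1 fit on CPM. Eif1b made up 7.09 to 8.65% of the sum of Eif1 and Eif1b in WT RT and 4.81 to 5.29% in WT Cold.

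Promoter sequence just ahead of the annotated start is shown for Eif1, the member with the largest rise, for Eif3j1 and for Eif4ebp2, as examples of members that moved in each direction. The sequences are from RefSeq on GRCm38.p6, at chr11:100319699-100319884 on the plus strand, chr2:122028330-122028545 on the plus strand and chr10:61452670-61452919 on the minus strand. Capitals mark TGACG, the core of the site of CREB and ATF proteins, on either strand.
Eif1: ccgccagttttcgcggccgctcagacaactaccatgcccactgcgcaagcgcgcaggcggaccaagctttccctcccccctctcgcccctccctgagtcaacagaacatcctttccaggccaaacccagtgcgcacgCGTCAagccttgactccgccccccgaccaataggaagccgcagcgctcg
Eif3j1: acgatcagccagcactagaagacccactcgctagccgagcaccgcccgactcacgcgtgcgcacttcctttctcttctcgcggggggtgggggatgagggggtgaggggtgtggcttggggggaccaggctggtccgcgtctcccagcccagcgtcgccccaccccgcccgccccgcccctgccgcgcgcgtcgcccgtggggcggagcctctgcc
Eif4ebp2: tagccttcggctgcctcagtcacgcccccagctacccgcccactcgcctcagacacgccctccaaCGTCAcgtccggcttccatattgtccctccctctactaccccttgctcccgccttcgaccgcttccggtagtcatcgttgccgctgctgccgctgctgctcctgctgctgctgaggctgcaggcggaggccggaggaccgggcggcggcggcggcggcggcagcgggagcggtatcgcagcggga

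Of the 52 members, 39 matched the promoter table, and 21 of these (53.8%) held TGACG on either strand in the 250 bases before the start, against 28.2% of the 12060 listed genes with a promoter and 19.8% of all 27025 genes in it. It stood in 6 of 12 members called higher in WT Cold, in 14 of 26 not called and in the 1 called lower that matched. CACGTG, the E-box that MYC and TFE proteins bind, was in 9 of 39 members (23.1%), against 9.36% of listed genes. TGATGNAA, the letters of the composite site of C/EBP and ATF4, was in 1 of 39 members and 2.45% of listed genes, and TGACGTCA, which contains TGACG, was in 0 of 39 members and 2.82% of listed genes. These are matches of letters and not evidence of binding.

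The substrate of GCN2 changed little in transcript. Eif2s1 had normalized counts of 1655, 1778 and 1739 in WT RT and 1838, 1807 and 1919 in WT Cold, so that all cold libraries were higher, yet by only 0.11 (95% interval -0.05 to 0.27, limma adjusted p = 0.284). Eif2s2, which encodes the beta subunit, was at 3837, 3539 and 3256 in WT RT and 4916, 4477 and 4308 in WT Cold (0.37, SE 0.088, limma adjusted p = 0.018), a call that was lost without WT RT B, WT RT C, WT Cold A or WT Cold B (limma adjusted p 0.0525 to 0.0644). For the gamma subunit, Eif2s3y stood at 2459, 2274 and 2346 in WT RT and at 2570, 2002 and 218 in WT Cold, and Eif2s3x at 1353, 1290 and 1564 and at 1499, 1364 and 2136. WT Cold C was the library with the lowest Eif2s3y and the highest Eif2s3x, and neither gene was called (limma adjusted p = 0.315 and 0.342).

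Among the eIF2B subunits, which form the exchange factor for eIF2, 2 of 5 were called higher and all 5 were on the positive side, with a median of 0.24. Eif2b3, the gamma subunit gene, had normalized counts of 467, 526 and 540 in WT RT and 956, 832 and 886 in WT Cold. The groups did not overlap, and the rise was 1.75-fold (0.81, SE 0.1, limma adjusted p = 0.00147). Eif2b4, the delta subunit gene, stood at 1041, 1095 and 1158 and at 1394, 1351 and 1367 (0.33, limma adjusted p = 0.0173), with the call lost without WT RT A, WT RT B, WT Cold A or WT Cold B (limma adjusted p 0.0531 to 0.0621). Eif2b5, which encodes the catalytic epsilon subunit, differed by 0.24 (95% interval 0.06 to 0.43, limma adjusted p = 0.0575), Eif2b2, the beta subunit gene, by 0.24 (0.01 to 0.48, limma adjusted p = 0.111) and Eif2b1, the alpha subunit gene, by 0.09 (-0.13 to 0.31, limma adjusted p = 0.497).

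The eIF3 complex is the scaffold on which the other factors meet on the small subunit. Of its 15 genes, 5 were called higher, none lower, and the median was 0.17. Eif3j1, which encodes the loosely bound j subunit, was at 1964, 2050 and 2074 in WT RT and at 3103, 2751 and 2982 in WT Cold, without overlap (0.54, SE 0.0745, limma adjusted p = 0.00221). Eif3m, Eif3k, Eif3c and Eif3i rose by 0.41, 0.39, 0.34 and 0.22, and of these the calls of Eif3c and Eif3i were lost in some sets of libraries, with limma adjusted p up to 0.0523 and 0.158. Eif3c was not called without WT RT A or WT Cold A, and Eif3i when any library other than WT Cold C was left out. Limma without trend called neither. Eif3i was also not called by DESeq2 or edgeR, on library totals or with all 3 groups in 1 fit on CPM. The core subunit gene Eif3b (0.06, limma adjusted p = 0.543) and Eif3f (0.03, limma adjusted p = 0.751) were not called, with 95% intervals from -0.10 to 0.22 and from -0.13 to 0.20. Eif3h, the most abundant eIF3 transcript per kilobase, was not called at 0.16 (limma adjusted p = 0.0975). Neither was Eif3s6-ps2, a pseudogene copy of Eif3e (-0.10, limma adjusted p = 0.83).

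In the cap-binding and helicase group, 3 of 11 members were called higher and 1 lower. Eif4g2, whose product DAP5 resembles eIF4G but lacks its eIF4E-binding part, had normalized counts of 16418, 17240 and 17537 in WT RT and 25719, 24254 and 21727 in WT Cold (0.49, SE 0.0837, limma adjusted p = 0.00517). Eif4a1 rose from 7655, 8353 and 7612 to 10429, 9896 and 10948 (0.41, limma adjusted p = 0.00623), while its paralog Eif4a2 stood at 10153, 9636 and 9865 and at 9103, 8268 and 10806 (-0.08, limma adjusted p = 0.603, and 0.01 without WT Cold B). Eif4a2 thus made up 53.6 to 57.0% of the pair in WT RT and 45.5 to 49.7% in WT Cold. Eif4e3, a divergent member of the eIF4E family, was lower in each cold library, at 2321, 2335 and 2135 against 3253, 3134 and 3578 (-0.55, SE 0.0799, limma adjusted p = 0.00273). Eif4g3 rose by 0.37, a call that was lost without WT RT A or WT Cold B (limma adjusted p 0.0644 to 0.0709). Eif4e itself was not called (0.19, 95% interval -0.00 to 0.39, limma adjusted p = 0.124), and neither was the main scaffold gene Eif4g1 (-0.06, -0.26 to 0.13, limma adjusted p = 0.611).

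Among the genes of proteins that bind eIF4E, 2 of 4 were called lower and none higher. Eif4ebp1 had normalized counts of 6696, 5469 and 6849 in WT RT and 3316, 3122 and 4559 in WT Cold. All cold libraries were below all WT RT libraries, WT Cold C being the nearest to them, and the fall was -0.80 (SE 0.156, limma adjusted p = 0.00835). Eif4ebp2 stood at 2197, 2023 and 2628 and at 1617, 1298 and 1293 (-0.70, SE 0.129, limma adjusted p = 0.00679). Eif4ebp3, at 43.0 to 62.2 in WT RT and 61.0 to 94.2 in WT Cold, overlapped (0.53, 95% interval -0.05 to 1.11, limma adjusted p = 0.155). Eif4enif1, which encodes the eIF4E transporter 4E-T, differed by 0.13 (limma adjusted p = 0.299).

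Of the genes that act at subunit joining or later, Eif6, which keeps free large subunits from joining, was the one called, at 0.38 (limma adjusted p = 0.0107). Eif5, the GTPase activator of eIF2, was at -0.09 (95% interval -0.27 to 0.10, limma adjusted p = 0.447), and Eif5a differed by 0.17 and Eif5a2 by 0.43 (limma adjusted p = 0.0886 and 0.15). In the remaining group Eif1ad, named for its eIF1A domain, rose by 0.45 (limma adjusted p = 0.00958), and Eif4a-ps4, a pseudogene copy of Eif4a1 that shares 86.0% of its 150-base windows with that gene, was not called (0.05, limma adjusted p = 0.841). Eif2a, whose product can bring initiator tRNA without eIF2, and Eif2d, which binds tRNA at reinitiation, were not called either (0.32 and -0.22, limma adjusted p = 0.0793 and 0.171). Of the 20 members called, 13 stayed called under all 14 alternatives tried, namely Eif1, Eif1a, Eif1ad, Eif2b3, Eif3j1, Eif3k, Eif3m, Eif4a1, Eif4e3, Eif4ebp1, Eif4ebp2, Eif4g2 and Eif6. In this tissue fewer cells of a type and less RNA per cell cannot be told apart, and macrophage and monocyte markers were called lower for 5 of 8 genes and red blood cell markers higher for 5 of 5 in the same comparison.

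**Figure D2:**
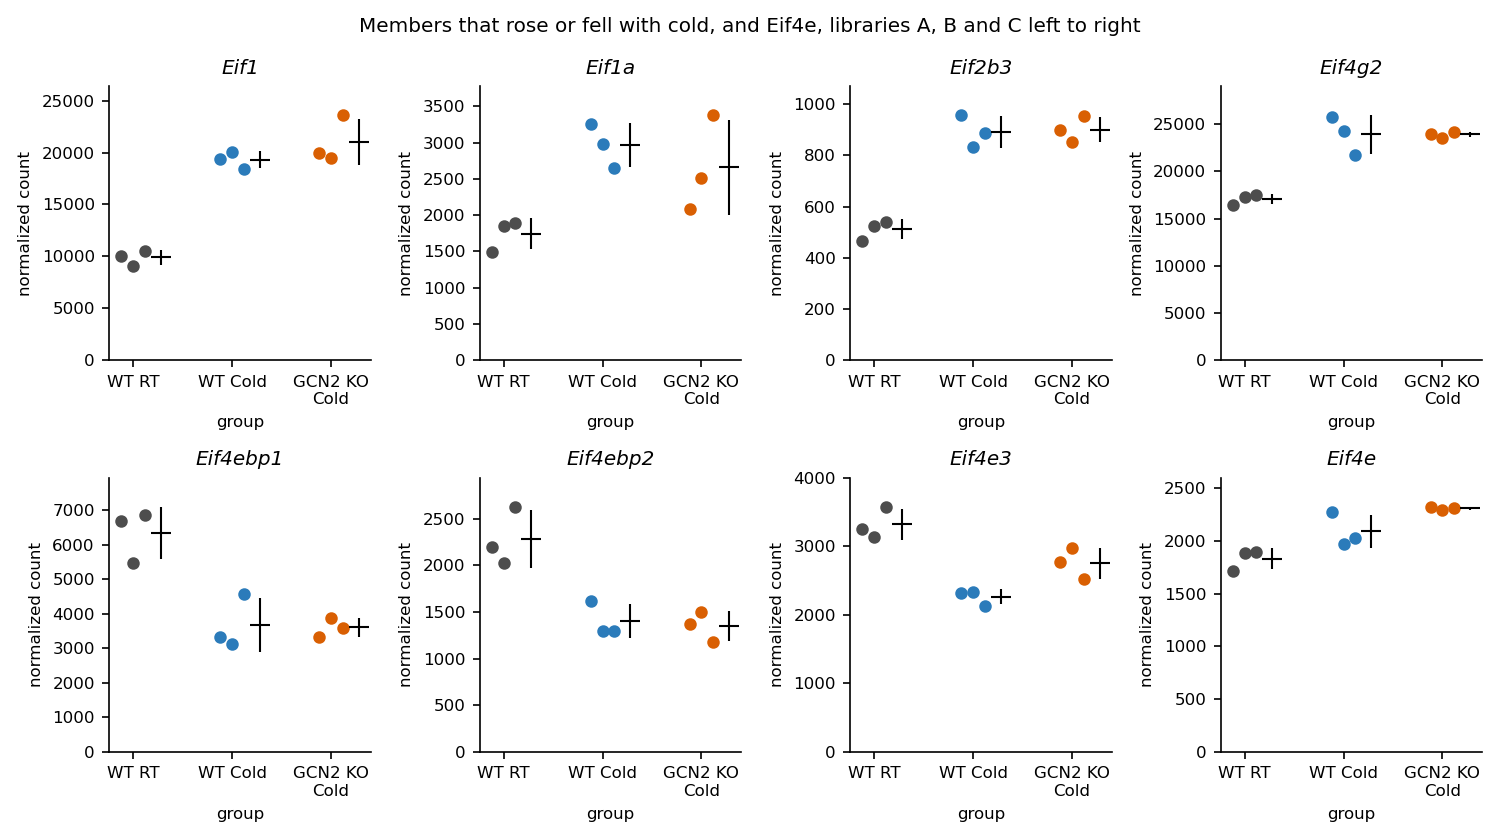
Dots are normalized counts of libraries A, B and C from left to right in each group, with the mean and SD (n = 3), on axes that start at 0. Both cold groups lie above WT RT for Eif1, Eif1a, Eif2b3 and Eif4g2 and below it for Eif4ebp1, Eif4ebp2 and Eif4e3, while the WT Cold range of Eif4e, 1974 to 2272, starts just above the WT RT maximum of 1894.

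GCN2 KO Cold was compared with WT Cold to ask which transcripts depended on GCN2 during cold. A single initiation factor gene, Eif3j2, was called: it stood 13.2-fold higher in those with the GCN2 KO Cold label (log2 fold change 3.72), and its near-identical partner Eif3j1 stood at 0.719 of its WT Cold level without passing limma's test within the table. The 1 member called higher (1.92%) compares with 0.178% of all 16312 genes, and no member was called lower (0.227% of all genes). With the fold threshold 1 member was called (0.257% of all genes), and at an unadjusted p under 0.05 there were 8 members (15.4%) against 15.3% of all genes. DESeq2 called 2 members (3.85%) against 3.22% of all genes, edgeR 1 against 0.27%, and the fit without both libraries low in Y-linked reads 1 against 1.03%. With all 3 groups in 1 limma fit on CPM, 3 members were called (Eif3j2, Eif3j1 and Eif4b), against 2.62% of all genes. With joint size factors, a setting chosen after seeing the data, that fit called 2 (Eif3j2 and Eif3j1), against 2.02%. The median member differed by 0.012 and the median of all genes by -0.0031. All GCN2 KO Cold libraries were higher for 10 members (19.2%), against 11.3% of all genes, all were lower for 7 (13.5%), against 10.7% of all genes, and 35 overlapped. Scaled to library totals, the median of all genes moved to -0.12 and that of the members to -0.11, so directions of small differences depend on the scaling.

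Eif3j2 is an intronless gene with 1 exon at chr18:43475418-43477796, on the minus strand of GRCm38, and Eif3j1 lies at chr2:122028546-122056598 on the plus strand with up to 8 exons in a transcript. Normalized counts of Eif3j2 were 43.9, 52.7 and 55.1 in WT RT, 67.1, 52.0 and 70.7 in WT Cold, and 771, 844 and 910 for GCN2 KO Cold. Every GCN2 KO Cold library was far above every WT library (SE 0.158, 95% interval 3.35 to 4.09, limma adjusted p = 0.000323), and over the 15 alternatives the adjusted p ranged from 6.63e-82 to 0.0097. Eif3j1 stood at 3103, 2751 and 2982 in WT Cold, and at 2056, 1957 and 2354 for GCN2 KO Cold. These groups did not overlap either, but the difference of -0.48 (SE 0.0945, 95% interval -0.70 to -0.26) was not called by limma within the table (adjusted p = 0.0969). It was called by DESeq2 (adjusted p = 0.00828) and by both limma fits of all 3 groups (adjusted p = 0.0117 on CPM and 0.0272 with joint size factors), and the range over all alternatives was 0.00828 to 0.354.

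Reads of this pair cannot be assigned with certainty. A run of 781 bases of the 783-base Eif3j1 coding sequence occurs unchanged in the 789-base coding sequence of Eif3j2. Of all 150-base windows in the annotated transcripts, 30.3% of those of Eif3j1 and 77.1% of those of Eif3j2 were shared with the other gene, and reads that matched both places were not counted. Summed over the pair, normalized counts were 2008, 2102 and 2129 in WT RT, 3170, 2803 and 3053 in WT Cold, and 2827, 2801 and 3265 in GCN2 KO Cold. The sum overlapped between the cold groups (log2 ratio -0.02, two-sided exact permutation p = 0.9, and -0.14 with p = 0.3 on CPM). Eif3j2 made up 1.85 to 2.59% of the pair in the 6 WT libraries and 27.3 to 30.1% in GCN2 KO Cold. Eif3j1 lies on the same chromosome as the targeted Eif2ak4 (chr2:118388618-118475234), with a gap of 3.55 Mb.

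**Figure D3:**
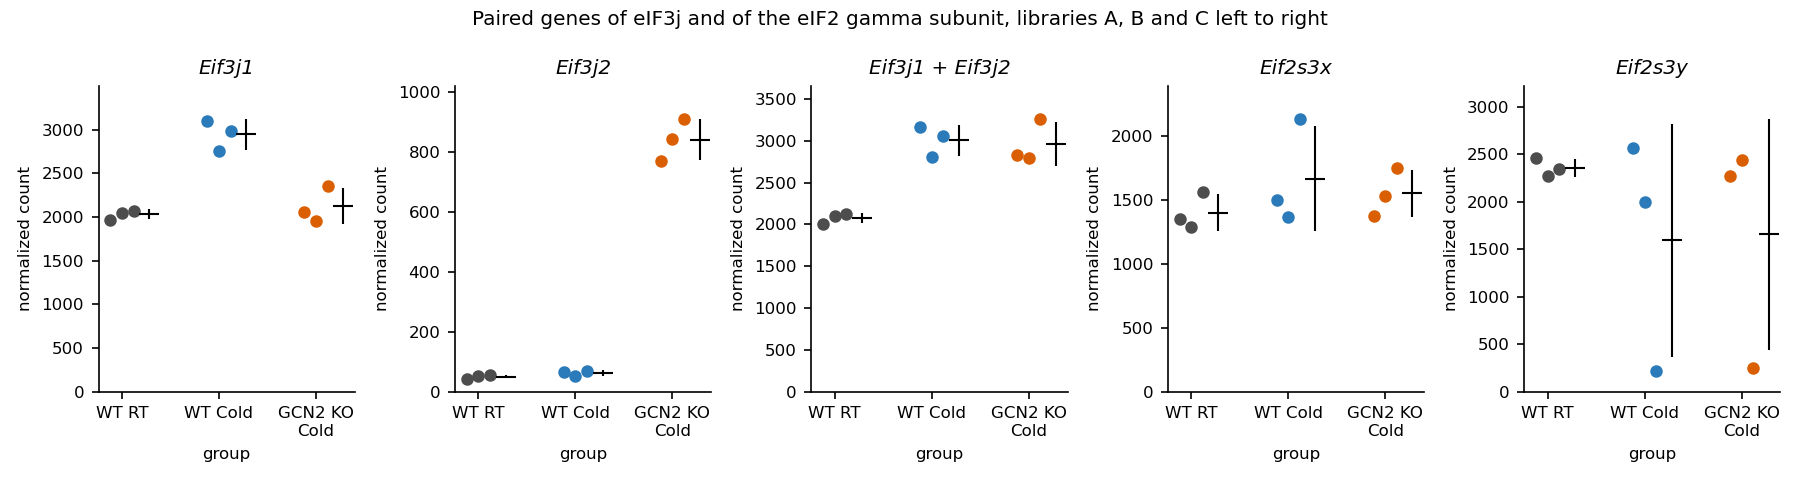
Dots are normalized counts of libraries A, B and C from left to right in each group, for Eif3j1, Eif3j2, their sum, Eif2s3x and Eif2s3y, with bars for the mean and SD (n = 3), and the vertical axes start at 0. Eif3j2 lies between 43.9 and 70.7 in the WT libraries and between 771 and 910 in GCN2 KO Cold, and Eif2s3y is low in library C of both cold groups.

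With the cold groups alone, limma called no member of another role. Eif4b, of the cap-binding and helicase group, was called lower only with all 3 groups in 1 fit on CPM. Its normalized counts were 5567, 4960 and 6623 in WT Cold and 3673, 4401 and 4646 in GCN2 KO Cold. All 5 eIF2B subunits differed by 0.02 to 0.16 with 95% intervals within -0.20 to 0.36, and by -0.10 to 0.04 when scaled to library totals. The scanning genes differed by -0.18 to 0.17, with intervals from -0.58 to 0.41, and the 4E-binding group by -0.20 to -0.01, with intervals from -0.73 to 0.52. In the cap-binding and helicase group differences ran from -0.43 to 0.28 (intervals from -0.73 to 0.48). Within the eIF2 genes the intervals reached from -2.55 to 2.76, through Eif2s3y, which was low in library C of both groups. Eif5a2, a weakly expressed gene, had the lowest value of the members at -0.51 (limma adjusted p = 0.266), at 109, 88.9 and 93.2 in WT Cold, and 65.0, 76.3 and 62.6 for GCN2 KO Cold. The 95% intervals of the members from limma reached a median of 0.21 to either side. All 12 skeletal muscle markers were lower in GCN2 KO Cold in this comparison, with a median of -2.04 and 1 called.

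**Figure D4:**
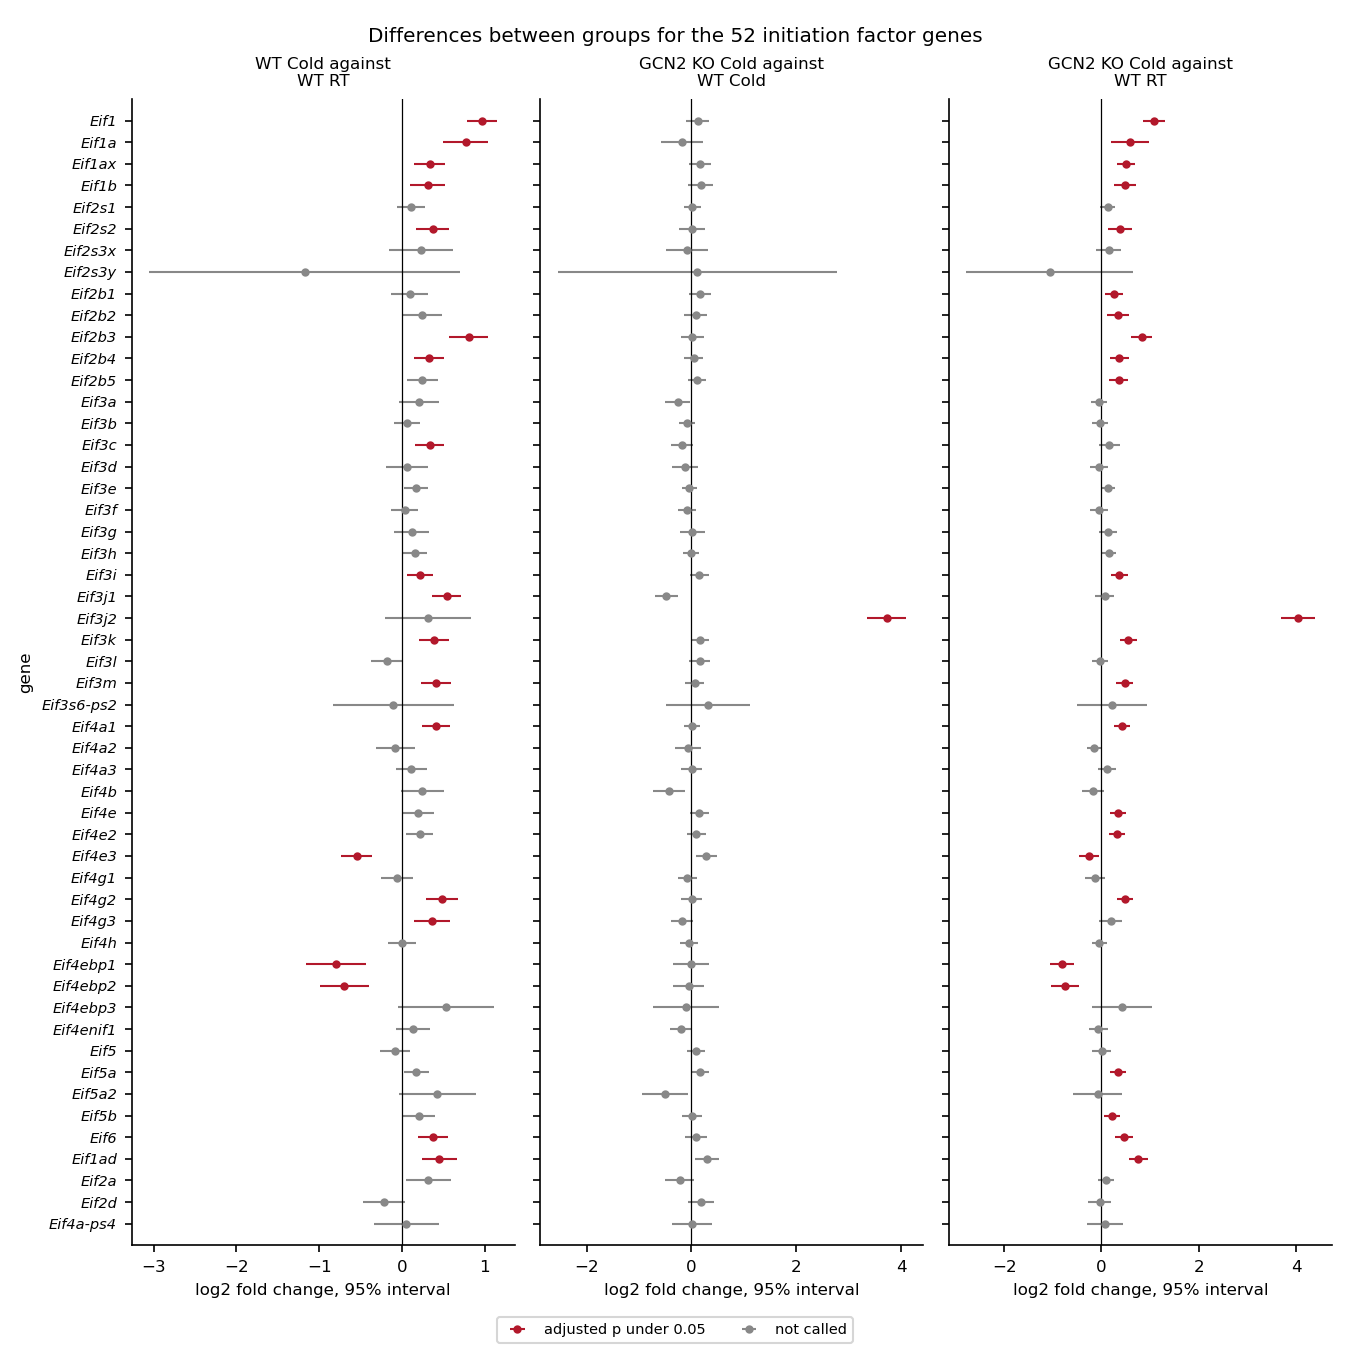
Points are log2 fold changes of the 52 genes with 95% intervals from limma in the 3 comparisons, in red where the gene was called and in grey where it was not. Most points of both comparisons with WT RT lie right of 0, while between the cold groups most intervals include 0 and Eif3j2 stands alone at 3.72, and with scaling to library totals the median of the members between the cold groups is -0.11 and that of GCN2 KO Cold against WT RT is -0.05.

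GCN2 KO Cold was also compared with WT RT, to give the change with cold in mice that lack GCN2. These libraries differ from WT RT in genotype as well as temperature, and the comparison shares its WT RT libraries with the one above, so values of both are given side by side without a test between them. Eif1 rose 2.13-fold, all 5 eIF2B genes were called higher, Eif4ebp1 and Eif4ebp2 fell to 0.572 and 0.594 of WT RT, and Eif3j2 stood 16.4-fold higher. In all, 22 of 52 members (42.3%) were called higher against 16.4% of all 16560 genes, and 3 (5.77%) lower against 17.8%, but scaled to library totals, which moved the median of all genes to -0.19, 9 were called higher and 13 lower (8.97% and 29.1% of all genes on that scale). In the limma fit of all 3 groups on CPM, 10 were called higher and 12 lower (9.22% and 29.6% of all genes). With the fold threshold 2 members were called, Eif3j2 and Eif1, against 10.6% of all genes. The median was 0.16 for members and 0.0091 for all genes, and relative to the median of all genes the members stood at 0.15 in the table as deposited and at 0.14 on library totals. All GCN2 KO Cold libraries were higher than all WT RT libraries for 26 members, against 23.7% of all genes, and lower for 4, against 25.5% of all genes. Without GCN2 KO Cold C, 17 were called higher (13.9% of all genes) and 2 lower (14.7% of all genes).

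In the scanning group all 4 genes were again called, with a median of 0.55. Eif1 was at 19953, 19487 and 23576 in GCN2 KO Cold (1.09, SE 0.0993, limma adjusted p = 0.000255). Eif1a stood at 2089, 2515 and 3377, a wide spread with GCN2 KO Cold C at the top (0.59, limma adjusted p = 0.0284), and its call was lost without WT RT A, WT RT B, GCN2 KO Cold B or GCN2 KO Cold C (limma adjusted p 0.0544 to 0.0974). Eif1ax and Eif1b rose by 0.50 and 0.49 (limma adjusted p = 0.00257 and 0.00589).

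Among the eIF2B genes the median was 0.35, and on library totals the values ran from 0.05 to 0.62, still positive for all 5. Eif2b3 was at 898, 853 and 952 (0.82, SE 0.0978, limma adjusted p = 0.000746). Eif2b4 rose by 0.37, Eif2b5 by 0.35, Eif2b2 by 0.33 and Eif2b1 by 0.25 (limma adjusted p = 0.0112, 0.012, 0.0317 and 0.0427), and of these only Eif2b4 and Eif2b5 kept their calls whichever library was left out. For Eif2b2 the call was lost when any library other than GCN2 KO Cold A was left out (limma adjusted p 0.0506 to 0.102), and for Eif2b1 when any of the 6 was left out (limma adjusted p 0.0545 to 0.135). None of the 4 besides Eif2b3 was called on library totals or with all 3 groups in 1 fit on CPM. Eif2b1 was also not called by DESeq2 or edgeR. Of the eIF2 genes, Eif2s2 rose by 0.38 (limma adjusted p = 0.0259), a call lost without WT RT B, WT RT C, GCN2 KO Cold A or GCN2 KO Cold C (limma adjusted p 0.0604 to 0.0864), and Eif2s1 was not called, at 0.13 (95% interval -0.03 to 0.28, limma adjusted p = 0.2).

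Eif3j1 in the libraries with the GCN2 KO Cold label overlapped WT RT, at a difference of 0.07 (95% interval -0.13 to 0.27, limma adjusted p = 0.586), and -0.14 on library totals. Eif3j2 differed by 4.04 (SE 0.148, limma adjusted p = 7.06e-06), and the sum of the pair by 0.52 (two-sided exact permutation p = 0.1, the smallest that 3 against 3 can give), beside 0.54 for WT Cold against WT RT (p = 0.1). Of the other eIF3 genes, Eif3k, Eif3m and Eif3i rose by 0.55, 0.48 and 0.37.

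Eif4ebp1, at 3321, 3878 and 3599 in GCN2 KO Cold, fell by 0.81 on the log2 scale (SE 0.106, limma adjusted p = 0.00108), and Eif4ebp2, at 1373, 1499 and 1176, fell by 0.75 (SE 0.125, limma adjusted p = 0.00282). Eif4e3 stood at 2769, 2975 and 2524, between both WT groups, and was called at -0.26 (limma adjusted p = 0.0498), a call lost when any library other than GCN2 KO Cold B was left out (limma adjusted p 0.0628 to 0.154). Eif4g2 (0.49), Eif4a1 (0.42), Eif4e (0.34) and Eif4e2 (0.32) were called higher in the cap-binding and helicase group, and Eif6 (0.46), Eif5a (0.34) and Eif5b (0.22) among the late factors. On library totals the calls of Eif4a1, Eif4e, Eif4e2, Eif5a and Eif5b were lost, as were those of Eif1a, Eif1b, Eif2s2 and Eif3i. Eif1ad rose by 0.75 (limma adjusted p = 0.000621). The call of Eif5b was lost when any of the 6 libraries was left out (limma adjusted p 0.061 to 0.126). Of the 25 members called, 11 stayed called under all 14 alternatives, namely Eif1, Eif1ad, Eif1ax, Eif2b3, Eif3j2, Eif3k, Eif3m, Eif4ebp1, Eif4ebp2, Eif4g2 and Eif6. In this comparison 11 of the 12 skeletal muscle markers and 8 of 8 macrophage and monocyte markers were called lower, and 5 of 5 red blood cell markers higher.

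Genes around initiation were read from lists of 6 related steps, as context for the members, and their counts stand beside the 13.6% of all genes called higher and 14.1% called lower in WT Cold against WT RT. With cold in WT mice, the 6 genes of eIF2 kinases and the eIF2 phosphatase held 2 calls upward and 2 downward: Eif2ak2, the kinase PKR, fell by 1.60 on the log2 scale (limma adjusted p = 0.000491), Eif2ak4 stood at -0.59 (limma adjusted p = 0.0294, but 0.059 to 0.0972 without WT RT B, WT RT C, WT Cold A or WT Cold B), and Ppp1r15a and Ppp1r15b, the regulatory subunits that bring the phosphatase to eIF2, rose by 0.95 and 0.29. Of 7 genes of the integrated stress response, 4 were called higher, with Atf4, its central transcription factor, at 1.20 (limma adjusted p = 0.00176) and Sesn2, an inhibitor of mTORC1, at 1.26 (limma adjusted p = 0.00482). Normalized counts of Atf4 were 2713, 4233 and 3135 in WT RT, 7457, 6985 and 8358 in WT Cold, and 5954, 5456 and 8553 for GCN2 KO Cold. In mTORC1 and cap-binding control, 4 of 14 were called higher and 2 lower: Ddit4, which restrains mTORC1, rose by 1.69 (limma adjusted p = 0.0255) with WT Cold C at 8563 against 2882 and 2944 in the other cold libraries, a call lost without WT RT B or WT RT C (limma adjusted p 0.0516 to 0.0831), and Pdcd4, an inhibitor of eIF4A, and Mknk2, a kinase of eIF4E, fell by 1.15 and 0.96. The lists of poly(A) binding (1 of 5), elongation (3 of 8) and termination, recycling and reinitiation (5 of 7) had calls in the higher direction and none in the lower. Of the 23 calls on the 6 lists, 11 were lost when some library was left out: Eif2ak4, Ddit4, Akt1s1, Ppp1r15b, Asns, Atf5, Pabpc4, Eef2, Abce1, Gspt2 and Mcts2, with a largest limma adjusted p of 0.0616 to 0.123. They include the 1 poly(A) call (Pabpc4) and 3 of the 5 in termination, recycling and reinitiation, and 6 of the 23 were lost on library totals.

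Between the cold groups, 0 of the 47 genes on these lists were called by limma, 8 had an unadjusted p under 0.05 (15.3% of all genes did), DESeq2 called 2 (Eif2ak4 and Eef1a2, against 3.22% of all genes) and edgeR 0 (0.27% of all genes). Eif2ak4 itself differed by 0.78 (limma adjusted p = 0.0932), the libraries with the GCN2 KO Cold label being higher. Eef1a2, the elongation factor gene of muscle and neurons, differed by -2.24 (SE 0.479, limma adjusted p = 0.111), with normalized counts of 2116, 2087 and 1264 in WT Cold, and 647, 493 and 165 for GCN2 KO Cold, next to the lower skeletal muscle markers. In GCN2 KO Cold against WT RT, where 16.4% of all genes were called higher and 17.8% lower, the kinase and phosphatase list had 1 gene called higher and 1 lower of 6 (Eif2ak2 at -1.68), the stress response list 4 higher and 1 lower of 7 (Atf4 at 0.99, Chac1, which breaks down glutathione, at -1.17), and the mTORC1 list 3 higher and 3 lower of 14 (Ddit4 at 1.26, Mknk2 at -1.29, Pdcd4 at -1.03). Elongation had 2 higher and 1 lower of 8, with Eef1a2 at -1.72, poly(A) binding 1 higher of 5, and termination, recycling and reinitiation 3 higher of 7. Of these 20 calls, 7 were lost when some library was left out: Chac1 (without WT RT A, WT RT B, GCN2 KO Cold A or GCN2 KO Cold B), Eef1a2 (without WT RT A), Sesn2, Atf5, Ppp1r15a, Akt1s1 and Tsc1, with a largest limma adjusted p of 0.0584 to 0.132. On library totals 5 were lost: Sesn2, Atf5, Ppp1r15a, Akt1s1 and Paip2.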

How the data were processed

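RNA sequencing of total RNA from BAT of 9 mice was used (3 groups of 3), with 1 deposited table for each pair of groups. Poly(A) libraries were sequenced in paired reads of 150 bases, and the library kit was not stated to mark strand, so overlapping genes on opposite strands cannot be separated. The authors trimmed reads with Trimmomatic 0.36, aligned them with STAR 2.5.2b, counted unique exon reads with featureCounts of Subread 1.5.2 and scaled them with DESeq2, and the submitters' processing notes name GRCm39. Deposited values are the signal of each gene in each library, a read count divided by the size factor of that table. Columns of the authors' fold changes and p-values were not used, and the tables held 0 columns of other samples.

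Whole reads were recovered from the steps of the values in each library: 100% of values were whole within 0.01 of a read. Size factors were then set once over the 15999 genes with reads in all 9 libraries, which gives the normalized counts per library. This scale was used in place of the CPM first planned, because CPM shifted against the size factors. Group means and tests stay within each deposited table. Tests used limma 3.58.1 with a mean-variance trend (R 4.3.3) on log2(normalized count + 1) over all genes of a table, with Benjamini-Hochberg adjustment, called at 0.05 and counted again with an absolute log2 fold change over 1. Alternatives were a pseudocount of 0.5, a mean normalized count of at least 50, library totals, DESeq2 1.42.0 and edgeR 4.0.16 on recovered reads, limma without trend, all 3 groups in 1 fit, and leaving out each library. Scaling all 3 groups jointly, and leaving out both libraries low in Y-linked reads, were added after the data were seen. The code was checked on simulated data. Intervals are 95% intervals from limma.

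Coordinates, exon lengths and coding sequences are from GENCODE M21 on GRCm38, matched by gene identifier (all 52 members), and promoters from RefSeq. Named with values are members past both thresholds, the 5 largest rises and falls among called members of each comparison with a mean of at least 50, the genes of eIF2, eIF2B and the 4E-binding group, the 6 paralog pairs and the 3 highest members per kilobase. Other called members are named to complete a count, and Eif3b, Eif3f, Eif4g1, Eif4e, Eif5, Eif2a, Eif2d and both pseudogenes as members of their roles that were not called with cold in WT mice. These names were chosen after their values were seen. The members, the lists and these rules were chosen with earlier results of these data known. Each library was counted as 1 mouse. The limma p-values set the difference between groups against the spread between the 3 mice within each group, moderated over all genes tested.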

Additional observations from a re-analysis of the deposited data

How the results depend on the processing

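No paired analysis was possible because the columns carry library codes and no replicate numbers. Scaling moved the medians of the members most. In WT Cold against WT RT the median was 0.13 on library totals and 0.13 with all 3 groups in 1 fit on CPM. Between the cold groups it reversed to -0.11 under both, and in GCN2 KO Cold against WT RT to -0.047 under both, where 9 members were called higher and 13 lower on library totals (8.97% and 29.1% of all genes) and 10 and 12 in the 3-group fit (9.22% and 29.6%). The shift is that of all genes, whose medians moved to -0.08, -0.12 and -0.19. Limma without trend called 11 members higher in WT Cold against WT RT (9.44% of all genes). Between the cold groups DESeq2 called 2 members (1 lower; 3.22% of all genes in either direction), the 3-group fit 3 (2 lower; 2.62%) and the 3-group fit with joint size factors, chosen after seeing the data, 2 (1 lower; 2.02%). Leaving out each library gave 14 to 23 members called in WT Cold against WT RT (11 to 20 higher, 3 to 3 lower, 0 to 1 with the fold threshold, median 0.19 to 0.23). In the same fits 2907 to 5679 of all 16679 genes were called. Between the cold groups 1 to 1 members were called (median -0.0077 to 0.038), beside 3 to 24 of all 16312 genes. In GCN2 KO Cold against WT RT 19 to 21 members were called (17 to 19 higher, 2 to 3 lower, median 0.14 to 0.20). There the same fits called 4220 to 5261 of all 16560 genes. Single values that changed sign were Eif4a2 in WT Cold against WT RT (-0.18 to 0.010 over the fits that leave out a library, the positive value without WT Cold B), Eif3j1 in GCN2 KO Cold against WT RT (-0.14 on library totals, -0.14 in the 3-group fit, and -0.010 to 0.12 over the fits that leave out a library, the negative value without GCN2 KO Cold C), and, on normalized counts in place of CPM, the sums Eif4a1 with Eif4a2 in GCN2 KO Cold against WT RT (0.13) and Eif1a with Eif1ax between the cold groups (0.011). None of these was called. The cause of the other changes was not tested. Of the values of single genes and pairs, 768 held their direction and side of the threshold, 109 fell short of it, 6 newly passed it and 6 changed sign. Between the cold groups limma within the table did not call Eif3j1 at -0.48, while DESeq2 (adjusted p = 0.00828) and both 3-group limma fits (adjusted p = 0.0117 and 0.0272) did.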
